A study of Homo sapiens with 12 samples.

Results

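The mRNAs of 34 splicing factors, the SR proteins, their Tra2 relatives and the heterogeneous nuclear ribonucleoproteins (hnRNPs), were followed through RNA precipitated with Argonaute 2 (AGO2) in K562 cells. K562 is a human erythroleukemia cell line, and here it carried a C/EBPα-ER fusion according to the study's methods. The members were taken by gene symbol, and each of the 34 was found in exactly 1 of the 61782 rows of the deposited tables. Of these rows, 28 name a member alone, and 6 join a member with overlapping genes (SRSF1, HNRNPH2, HNRNPK, HNRNPL, HNRNPU and HNRNPUL2). There were 4 groups, with 3 samples each in the labels. Cells stably transduced with the lentiviral control vector pLV-control gave control_IgG, the mock precipitate with unspecific immunoglobulin, and control_AGO, the precipitate with the AGO2 antibody. Cells transduced with pLV-miR-143 gave miR143_IgG and miR143_AGO in the same way. All cells had been selected with puromycin after infection. The values are the authors' averages per group in FPKM, fragments scaled to the length of the transcript and to all mapped fragments of the library. With 1 value per gene and group there is no spread between samples, and no difference below has a replicate check or a test. In such bulk samples fewer cells and less RNA per cell cannot be told apart.

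SR proteins hold RNA recognition motifs and a domain rich in arginine and serine, and they bind exonic enhancers and recruit the splicing machinery. hnRNPs coat nascent transcripts, and many of them oppose the inclusion of exons. Many genes of both families control their own level by splicing in a poison exon or by keeping an intron, and such transcripts are degraded by nonsense-mediated decay or held in the nucleus. AGO2 carries microRNAs (miRNAs), which pair through their seed, bases 2 to 8, mostly with sites in 3′ untranslated regions (3′ UTRs) of cytoplasmic mRNAs. The AGO2 precipitate is therefore used to ask which mRNAs are bound in the presence of a miRNA, and the mock precipitate gives the background.

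The miRNA that was overexpressed is shown first, because its seed defines the sites that were looked for in the members. The mature sequence is from RefSeq (GRCh38.p14, chr5:149428978-149428998, plus strand), and the capitals mark the seed.
hsa-miR-143-3p: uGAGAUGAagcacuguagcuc
The longest annotated 3′ UTR of every member was searched for the 8mer TCATCTCA and for its shorter forms, the 7mer-m8 TCATCTC and the 7mer-A1 CATCTCA, on the transcribed strand, a longer match taking precedence over a shorter one that it contains. A site was found in 6 of the 34 members (17.6%), against 24.7% of 8263 other expressed coding genes with a 3′ UTR. An 8mer was found in 2 members (5.88%), against 4.97% of the other genes. The 6 sites are printed from GENCODE 29 transcripts (GRCh38, the assembly called hg38 in the labels), with the match in capitals and its position given for the match itself.
SRSF11, 8mer, chr1:70250884-70250891, plus strand: gctgtatttgtTCATCTCAaacctagatgt
SRSF8, 8mer, chr11:95070362-95070369, plus strand: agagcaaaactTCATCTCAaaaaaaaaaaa
PTBP2, 7mer-m8, chr1:96818372-96818378, plus strand: ccacccaattcTCATCTCctttattaatg
HNRNPA0, 7mer-m8, chr5:137746974-137746980, minus strand: atatactgtggTCATCTCttcagtgaaat
HNRNPC, 7mer-m8, chr14:21209175-21209181, minus strand: tatattttaaaTCATCTCtacattaaaat
HNRNPA3, 7mer-A1, chr2:177222773-177222779, plus strand: ctgggtgacccCATCTCAaagaagaaaag
The site of SRSF11 lies near the start of its 3′ UTR, at base 79 of 2247, whereas that of HNRNPC lies close to the end, at base 2156 of 2201. A match of these letters is a description of the annotated transcript and shows no binding.

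The precipitates differed in composition. Rows of 1 protein-coding gene took 7.90% (control) and 8.38% (miR-143 cells) of the summed FPKM of the mock precipitates, but 42.0% and 37.2% of that of the AGO2 precipitates. Numbers of fragments are unknown. The smallest values above 0, as the product of FPKM and transcript length, were 12.6 times higher in control_IgG than in miR143_AGO, so that low values are resolved less finely in control_IgG. The MIR143 row was listed at 0 without the miR-143 vector, and with it reached 44781 FPKM in the mock and 118393 FPKM in the AGO2 precipitate. Of the K562 markers, GATA1 lay between 52.0 and 73.2 FPKM in all groups, and CD3E and CD14 of other blood cells were listed at 0 in all.

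The splicing factor mRNAs were more abundant in the mock precipitates than in the AGO2 precipitates of the same cells. Summed over the 28 rows with a single name, they reached 928 FPKM in control_IgG and 324 FPKM in control_AGO, and 1027 FPKM in miR143_IgG and 273 FPKM in miR143_AGO. As a share of the FPKM of all coding rows, which is not affected by the non-coding RNA of a precipitate, these sums were 0.415%, 0.209%, 0.472% and 0.178% in the same order. The median member had 11.9 FPKM (IgG) and 2.80 FPKM (AGO) in control cells, and 17.4 FPKM (IgG) and 3.56 FPKM (AGO) in miR-143 cells. The highest member was HNRNPA1, a shuttling repressor of exon inclusion, in every group but control_AGO, in which it was PTBP1, the polypyrimidine tract binding protein that represses alternative exons. PTBP2, HNRNPH3 and HNRNPR were listed at 0 in control_IgG.

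**Figure D1:**
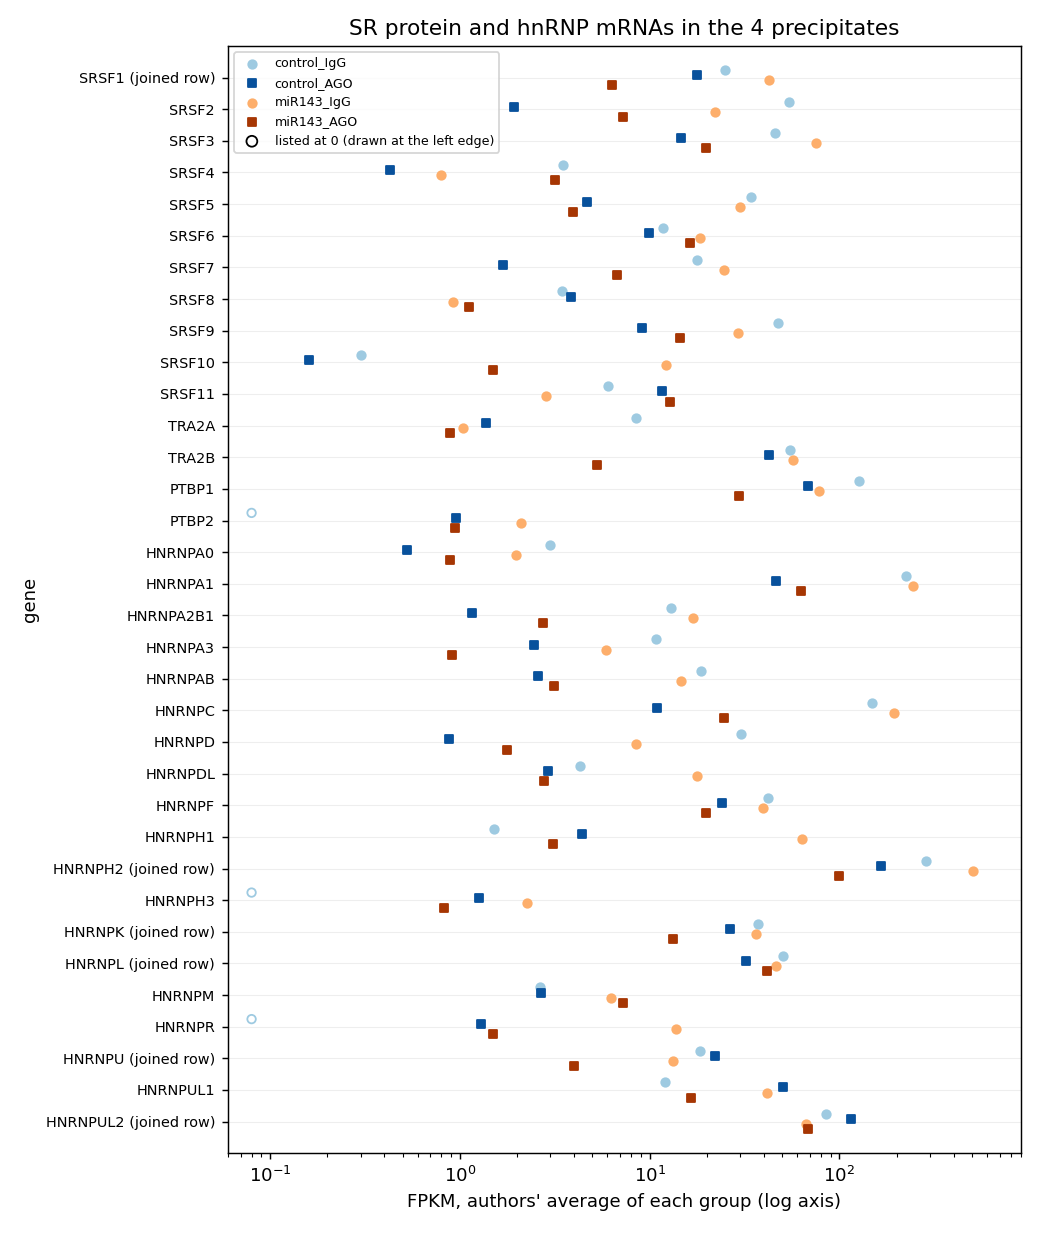
FPKM of each of the 34 genes (one line per gene, log axis) in the 4 groups, with circles for mock and squares for AGO2 precipitates, and with an open circle at the left edge for a gene listed at 0. Each point is the authors' average of a group. For most genes the circles lie to the right of the squares, with HNRNPA1 at 226 and 245 FPKM in the mock and at 46.1 and 63.0 FPKM in the AGO2 precipitates.

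The first comparison asked which of these mRNAs were held by AGO2 over the mock precipitate in control cells. Ratios are given as log2 of (FPKM + 1) over (FPKM + 1), which understates the difference of low genes, and a row was compared if it reached 1 FPKM in either group. Of the 26 members compared, 14 (53.8%) were at least 2-fold lower in control_AGO than in control_IgG, against 36.2% of all 9919 rows compared. At least 2-fold higher were 4 members, against 34.5% of all rows. The median log2 ratio was −1.47 for the members and −0.19 for all rows, and the ratio was below 0 for 19 of the 26 (73.1%), against 52.9% of all rows.

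SR proteins and hnRNPs of the A/B, C and D classes made up the low side in control cells. SRSF2 (SC35, chr17:76734115-76737374, minus strand), a classical SR protein of nuclear speckles, had 54.0 FPKM with IgG and 1.93 FPKM with AGO2, a log2 ratio of −4.23. HNRNPD (AUF1, chr4:82352498-82374503, minus strand), which binds AU-rich elements, had 30.4 FPKM with IgG and 0.878 FPKM with AGO2 (−4.06). HNRNPC (chr14:21209136-21269494, minus strand), which binds uridine tracts of nascent RNA, had 149 FPKM with IgG and 10.97 FPKM with AGO2 (−3.65). By the ratio with 1 FPKM added, these 3 were the members at least 10-fold lower, a mark that 4.98% of all rows passed. Without the added 1, HNRNPA2B1 (11.2-fold) and SRSF7 (10.6-fold) were also more than 10-fold lower. Among the other SR proteins, log2 ratios were −2.81 for SRSF7, −2.63 for SRSF5, −2.26 for SRSF9, −1.66 for SRSF4 and −1.57 for SRSF3. SRSF3 and SRSF7 also act as adaptors of mRNA export, SRSF4 and SRSF5 are close relatives of SRSF6, and SRSF9 is the closest relative of SRSF1. All 5 members of the hnRNP A/B class were at least 2-fold lower, with log2 ratios of −2.70 for HNRNPA2B1, −2.47 for HNRNPAB, −2.27 for HNRNPA1, −1.77 for HNRNPA3 and −1.38 for HNRNPA0. TRA2A, an SR-like activator of exons, had a log2 ratio of −1.999, whereas its paralog TRA2B had −0.35.

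The members at least 2-fold higher in control_AGO were HNRNPUL1, HNRNPR, HNRNPH3 and HNRNPH1. HNRNPUL1 (chr19:41262496-41307598, plus strand), a relative of the scaffold protein hnRNP U, had 12.1 FPKM with IgG and 50.6 FPKM with AGO2 (log2 ratio 1.98). The other members of the group lay low in both precipitates, HNRNPR at 1.29 FPKM and HNRNPH3 at 1.26 FPKM in control_AGO with a listing at 0 in control_IgG, and HNRNPH1, which binds runs of guanosine, at 4.40 FPKM against 1.51 FPKM. HNRNPR and HNRNPH3 thus count as at least 2-fold higher by construction, because any compared row listed at 0 with IgG does. The value of HNRNPH1 in control_IgG was 5.02 times the low edge of that group, the level of its smallest values for a transcript of that length. HNRNPUL1 was therefore the only one of these ratios that rests on values above 10 FPKM in both groups.

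In miR-143 cells the same comparison again gave lower values in the AGO2 precipitate. All 28 members with a row of their own could be compared, and 17 (60.7%) were at least 2-fold lower in miR143_AGO than in miR143_IgG, against 33.5% of all 10643 rows. At least 2-fold higher were 2 members, against 26.6% of all rows. The median log2 ratio was −1.61 for the members and −0.22 for all rows, and the ratio was below 0 for 24 of the 28 (85.7%), against 54.3% of all rows. By the ratio with 1 FPKM added, HNRNPH1 was the only member at least 10-fold lower, a mark that 3.67% of all rows passed. It had 63.9 FPKM (IgG) against 3.10 FPKM (AGO), a log2 ratio of −3.99. Without the added 1, TRA2B was also more than 10-fold lower (10.8-fold). TRA2B (chr3:185915906-185938136, minus strand), an activator of exons bound through GAA-rich enhancers, had 57.0 FPKM (IgG) against 5.29 FPKM (AGO), a log2 ratio of −3.20. HNRNPC followed with 194 and 24.7 FPKM (−2.92), and SRSF5 with 30.0 and 3.94 FPKM (−2.65). The 2 members on the high side were SRSF11, with 2.85 FPKM (IgG) against 12.8 FPKM (AGO) and a log2 ratio of 1.84, and SRSF4, with 0.797 and 3.18 FPKM (1.22). SRSF4 was under 1 FPKM with IgG and was compared only through its AGO value. SRSF10, which represses splicing once dephosphorylated, was under 1 FPKM in both precipitates of control cells (0.303 and 0.160 FPKM) and had 12.1 and 1.49 FPKM in miR-143 cells (−2.40). The hnRNPs of the C and D classes were all at least 2-fold lower, and of the A/B class 4 of 5, HNRNPA0 having −0.65.

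The AGO over IgG ratios of both cell populations share no library, so that they can be set side by side. Of the 26 members compared in both, 18 had a ratio below 0 in both populations (34.6% of the 8648 rows so compared), and 10 were at least 2-fold lower in both (16.4% of rows). These 10 were SRSF2, SRSF3, SRSF5 and SRSF7 of the SR proteins, HNRNPA1, HNRNPA2B1, HNRNPA3 and HNRNPAB of the A/B class, HNRNPC and HNRNPD. SRSF5 had nearly the same log2 ratio in control (−2.63) and miR-143 cells (−2.65), and those of HNRNPA1 were −2.27 and −1.95. A ratio above 0 in both was found for SRSF8, SRSF11 and HNRNPM, of which SRSF11 (chr1:70205682-70253052, plus strand), an SR-related protein, had the largest values, 0.84 and 1.84. The other 5 members had ratios of opposite sign, with HNRNPH1, HNRNPH3, HNRNPR and HNRNPUL1 above 0 in control cells and SRSF4 above 0 in miR-143 cells. For HNRNPH3 and HNRNPR, listed at 0 in control_IgG, the ratio in control cells could only be above 0. Pearson's r between the ratios of both populations was 0.182 and Spearman's rho 0.243 over these 26 members, against 0.423 and 0.408 over all rows. This is a description over genes, which come from the same 4 averages. The direction was thus shared by most members, and their order much less so. Scaling the groups to the same median over rows raised the ratios of all rows in control cells, and 13 of 27 members (48.1%) were then at least 2-fold lower, against 26.8% of rows.

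**Figure D2:**
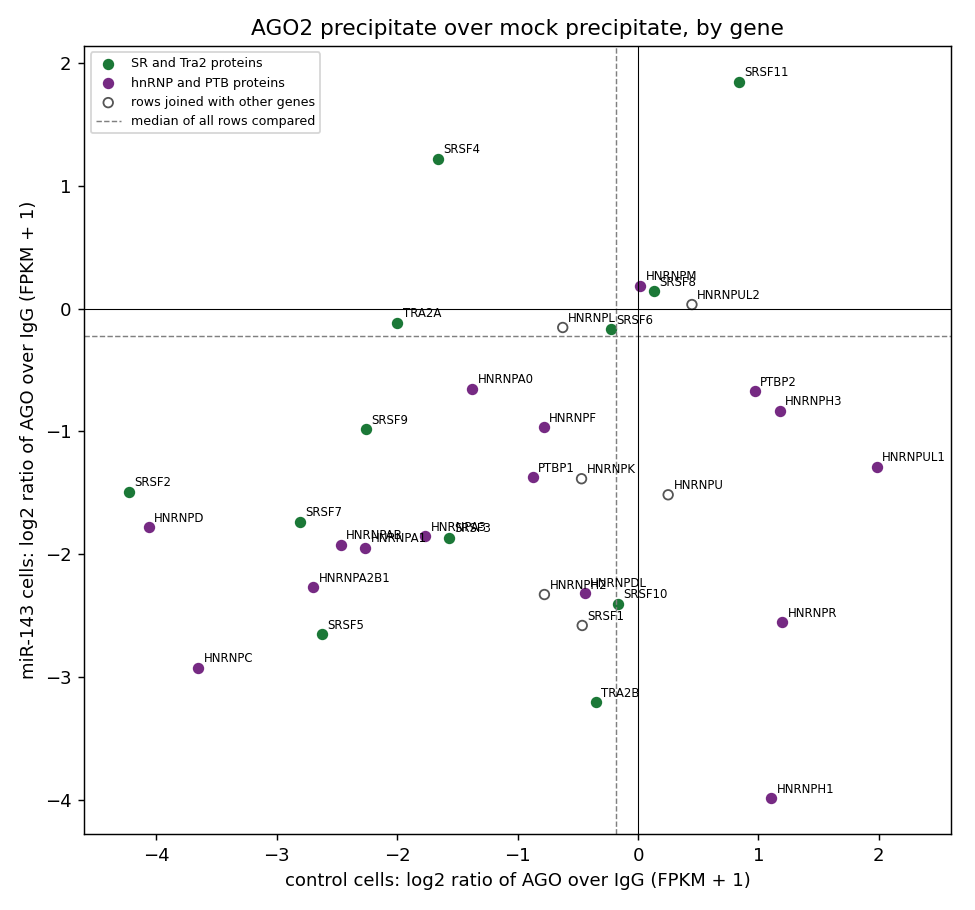
Log2 ratio of AGO over IgG, control cells (horizontal) and in miR-143 cells (vertical) for each gene, with SR and Tra2 proteins in green, hnRNP and PTB proteins in purple and rows joined with other genes as open circles. Dashed lines give the medians of all rows (−0.19 and −0.22). Most genes lie in the lower left area, below 0 on both axes. SRSF11 lies highest in the upper right area, which also holds SRSF8, HNRNPM and the joined row of HNRNPUL2.

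The ratios were also set against abundance. Across the 28 members, the log2 ratio had a Spearman correlation of −0.667 (control cells) and −0.620 (miR-143 cells) with the IgG level of the same cells, which is negative by construction because that level is the denominator of the ratio. With the IgG level of the other cell population, which is not part of the ratio, it was −0.209 for the control ratio and −0.289 for the miR-143 ratio. When only rows averaging 5 FPKM or more over both groups were kept, 11 of 17 members (64.7%) were at least 2-fold lower in control cells, against 44.3% of rows, and 16 of 21 (76.2%) in miR-143 cells, against 39.4% of rows. The part of abundance in the result was not tested beyond this.

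The central comparison of the study, between the AGO2 precipitates of miR-143 and control cells, showed the members close to the other rows. Among 26 members, 6 had a value at least 2-fold higher with the miR-143 vector (17.7% of all 9798 rows) and 4 at least 2-fold lower (14.1% of rows). The median log2 ratio was 0.17 for the members and 0.17 for all rows. By family it was 0.51 for 12 SR and Tra2 members, of which 4 (33.3%) were higher and 2 (16.7%) lower. Of these 4, SRSF4 (0.427 FPKM) and SRSF10 (0.160 FPKM) were under 1 FPKM in control_AGO. They were compared only through miR143_AGO, the group in which they are high, so that the share of 33.3% rests partly on the filter. For 14 hnRNP and PTB members the median was 0.04, with 2 (14.3%) higher and 2 lower. By the ratio with 1 FPKM added, no member was 10-fold higher or lower, against 0.286% and 0.745% of all rows. Without the added 1, the largest rise was that of SRSF10 (9.29-fold). The study also set its threshold at 10-fold, but it reported many more mRNAs past it than the 28 rows that were higher here. Its measure is thus not the same as this ratio, and the counts cannot be set side by side. The members on the high side were SRSF4, SRSF7, SRSF2, HNRNPM, SRSF10 and HNRNPC. SRSF7, whose protein holds a zinc knuckle beside its RNA recognition motif, had 1.69 FPKM in control and 6.73 FPKM in miR-143 cells (log2 ratio 1.52). SRSF2 was at 1.93 and 7.23 FPKM (1.49), and SRSF4 at 0.427 and 3.18 FPKM (1.55). HNRNPC was at 10.97 and 24.7 FPKM (1.10). All these genes except HNRNPM and SRSF4 remained lower with AGO2 than with IgG in miR-143 cells.

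TRA2B had the lowest ratio between the AGO2 precipitates. It had 42.7 FPKM in control and 5.29 FPKM in miR-143 cells, a log2 ratio of −2.80, while its mock values of 54.8 and 57.0 FPKM were nearly the same in both cell populations. HNRNPUL1 was at 50.6 and 16.5 FPKM (−1.56), SRSF8 at 3.86 and 1.12 FPKM (−1.20) and PTBP1 at 68.7 and 29.5 FPKM (−1.19). Their log2 ratios between the mock precipitates were 1.71, −1.21 and −0.69 in the same order. TRA2B, HNRNPUL1 and PTBP1 have no miR-143-3p site in their longest 3′ UTR.

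The 6 members with a site went in both directions. SRSF11, with an 8mer, had 11.6 FPKM in control and 12.8 FPKM in miR-143 cells (log2 ratio 0.13), whereas SRSF8, also with an 8mer, was lower in miR-143 cells (−1.20). HNRNPC (1.10) and HNRNPA0 (0.31) were higher in miR143_AGO, and HNRNPA3 (−0.86) and PTBP2 (−0.01) were lower. Between the mock precipitates the log2 ratios were −1.21 for SRSF8, −0.87 for SRSF11, −0.77 for HNRNPA3 and −0.42 for HNRNPA0. Those of HNRNPC (0.37) and PTBP2 (1.63, listed at 0 in control_IgG) were above 0. SRSF8 was thus lower by a similar amount with IgG, and its AGO over IgG ratios were 0.13 in control and 0.14 in miR-143 cells. HNRNPA0 at 0.530 and 0.890 FPKM and PTBP2 at 0.960 and 0.948 FPKM lay under 1 FPKM in both AGO2 precipitates. SRSF11 was higher in AGO than in IgG in both cell populations, and so with and without the miR-143 vector. SRSF8 arose as a retrotransposed copy of SRSF2, and reads that fit both genes may have been shared between them.

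As background, the mock precipitates of both cell populations were compared. Of the 28 members, 7 were at least 2-fold higher in miR143_IgG (36.2% of all 10172 rows) and 5 at least 2-fold lower (26.8% of rows), with a median log2 ratio of 0.09 for the members and 0.17 for all rows. By the ratio with 1 FPKM added, 3 members were at least 10-fold higher in miR143_IgG, HNRNPH1, HNRNPR and SRSF10, against 5.71% of all rows. HNRNPH1 had 1.51 FPKM without and 63.9 FPKM with the miR-143 vector, SRSF10 had 0.303 and 12.1 FPKM, and HNRNPR, an RNA-binding relative of SYNCRIP, was listed at 0 without and had 13.7 FPKM with it. In the AGO2 precipitates the values of HNRNPH1 were 4.40 and 3.10 FPKM and those of HNRNPR 1.29 and 1.505 FPKM. The opposite signs of the AGO over IgG ratios of HNRNPH1 and HNRNPR thus go with their mock values. HNRNPH3 and PTBP2, the neuronal relative of PTBP1, were likewise listed at 0 in control_IgG and had 2.25 and 2.10 FPKM in miR143_IgG. HNRNPH3, PTBP2 and HNRNPR thus count as at least 2-fold higher by construction. On the low side, TRA2A had 8.48 FPKM without and 1.04 FPKM with the vector (−2.21), and HNRNPD at 30.4 and 8.52 FPKM (−1.72).

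**Figure D3:**
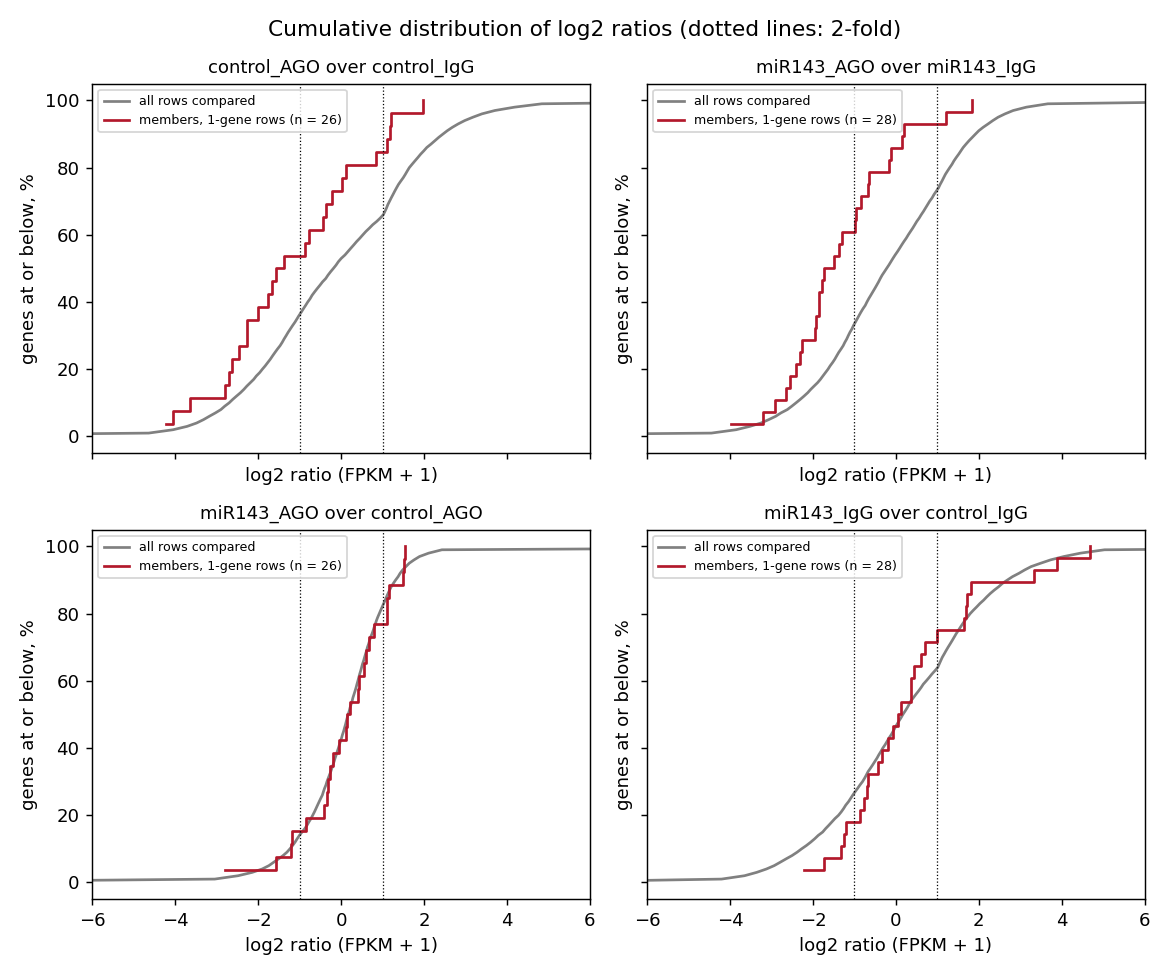
Cumulative share of genes (%) by log2 ratio in the 4 comparisons, for all rows compared (grey) and for the members with a row of their own (red, 26 or 28 genes), with dotted lines at 2-fold. In both panels of AGO over IgG the red line lies to the left of the grey one, with medians of −1.47 against −0.19 and −1.61 against −0.22, and in the AGO pair both lines run together around a median of 0.17.

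A few members had AGO over IgG ratios near 0 or alike in both cell populations. SRSF6, an SR protein with 2 RNA recognition motifs, had 11.8 FPKM (IgG) and 9.92 FPKM (AGO) in control cells and 18.5 FPKM (IgG) and 16.4 FPKM (AGO) in miR-143 cells, and both of its AGO over IgG ratios (−0.22 and −0.17) were near the medians of all rows. HNRNPF, a relative of HNRNPH1, had 42.1 and 24.0 FPKM in control and 39.8 and 19.9 FPKM in miR-143 cells, and was thus lower in AGO by a similar amount in both populations (−0.78 and −0.97). HNRNPM, which binds GU-rich RNA, was at 2.64, 2.69, 6.24 and 7.24 FPKM, and its ratios of 0.02 and 0.19 were close to 0. By contrast, HNRNPDL, a relative of HNRNPD, was at 4.30, 2.90, 17.8 and 2.77 FPKM, so that its AGO over IgG ratio was −0.44 in control and −2.31 in miR-143 cells.

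The 6 joined rows were left out of the counts because their values cannot be assigned to a single gene. SRSF1, the founding SR protein, shares its row with 2 clone-named transcripts and had 25.0002 FPKM (IgG) and 17.9 FPKM (AGO) in control cells and 42.8 FPKM (IgG) and 6.33 FPKM (AGO) in miR-143 cells. The row of HNRNPK, which binds cytidine-rich RNA, also names MIR7-1, whose mature miRNA lies within the gene (RefSeq, GRCh38.p14, chr9:83969811-83969834, minus strand) and is printed with its seed in capitals because the row cannot separate it from its host.
hsa-miR-7-5p: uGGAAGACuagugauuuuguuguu
The HNRNPK row had 37.1 FPKM (IgG) and 26.5 FPKM (AGO) in control and 36.2 and 13.2 FPKM in miR-143 cells. The row of HNRNPH2 includes the ribosomal protein gene RPL36A and was at 285, 166, 506 and 100.1 FPKM. The row of HNRNPU with its antisense gene was at 18.5, 22.2, 13.3 and 4.003 FPKM. Between the AGO2 precipitates the rows of HNRNPU (−2.22) and SRSF1 (−1.36) were at least 2-fold lower with the miR-143 vector. The rows of HNRNPL, which binds CA repeats, with ECH1 (log2 ratios of AGO over IgG of −0.63 and −0.15) and of HNRNPUL2 with BSCL2 (0.45 and 0.03) differed less. With the joined rows the share at least 2-fold lower became 14 of 32 (43.8%) in control and 21 of 34 (61.8%) in miR-143 cells, against 36.2% and 33.5% of all rows, and the median log2 ratio in control cells became −0.78. The share in control cells was thus much closer to that of all rows once the joined rows were counted.

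Features that the choice of members did not use were taken from GENCODE 29. A transcript annotated as a target of nonsense-mediated decay is listed for 26 of the 34 members (76.5%), against 44.7% of 8296 other coding genes with 1 FPKM or more in a group. A transcript with a retained intron is listed for 24 members (70.6%), against 60.8% of the other genes, and 5 members have neither. The members have a median of 11 annotated transcripts against 8, and a median longest 3′ UTR of 1928 bases against 1363. HNRNPH1 has 16 transcripts with a retained intron and SRSF7 has 6 subject to decay. Across the 28 members with a row of their own, the number of such transcripts had a Spearman correlation of −0.301 with the AGO over IgG ratio in control cells and of −0.434 in miR-143 cells, while that of the length of the 3′ UTR was 0.174 and −0.087. One FPKM per gene cannot separate these transcripts from the coding ones. Copies of the genes also limit single values, since 74 annotated pseudogenes carry the name of HNRNPA1, 16 that of HNRNPA3 and 9 that of HNRNPC, and reads that fit a gene and its copies are uncertain.

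Other genes of the splicing pathway were looked at by lists. Of 32 other splicing regulators, 24 could be compared in each cell population, and 9 were at least 2-fold lower and 6 higher in AGO than in IgG in control cells, and 14 lower and 4 higher in miR-143 cells. As shares these were 37.5% lower and 25% higher in control cells (36.2% and 34.5% of all rows), and 58.3% and 16.7% with miR-143 (33.5% and 26.6% of all rows), so that the lower share in control cells was near that of all rows. Their median log2 ratios were −0.29 and −1.29. The lowest were CIRBP (−3.27) and SRRM1 (−3.15) in control cells and TAF15 (−3.23) and ACIN1 (−2.59) in miR-143 cells. The highest were RBM10 (3.26) and HNRNPLL (2.69) in control cells and CELF1 (2.82) and RBM10 (2.64) in miR-143 cells. RBM10, a repressor of cassette exons, was at 1.52 FPKM in control_IgG and 23.2 FPKM in control_AGO, and at 3.47 and 27.0 FPKM in miR-143 cells, and thus stood on the other side from most members in both.

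Of 36 core spliceosome proteins, 12 of 28 compared were at least 2-fold lower and 4 higher in control cells, and 13 of 32 were lower and 3 higher in miR-143 cells, with medians of −0.69 and −0.46. The lower shares of 42.9% and 40.6% stand against 36.2% and 33.5% of all rows. The higher shares were 14.3% and 9.4%, against 34.5% and 26.6% of all rows. The lowest in control cells were SNRPC (−3.81) and SF3A1 (−3.36), and the lowest in miR-143 cells SNRPG (−3.84) and SNRPF (10.2 FPKM with IgG and listed at 0 with AGO2), while SF3B1 (listed at 0 with IgG and 7.74 FPKM with AGO2) and PRPF31 (1.95) were highest in control cells and EFTUD2 (3.00) and PRPF31 (1.69) in miR-143 cells. The kinases that phosphorylate SR proteins were split between both directions. Of 8 kinases, 6 were compared in control cells, with 1 at least 2-fold lower (SRPK2, −2.54) and 1 higher (CLK3, listed at 0 with IgG and 6.40 FPKM with AGO2), and 7 in miR-143 cells, with 1 lower (PRPF4B, −1.62) and 3 higher, DYRK1A (1.60), CLK1 (1.52) and SRPK2 (1.15). The share of kinases that were lower, 16.7% and 14.3%, was under that of all rows in both populations. The share that were higher was 16.7% in control and 42.9% in miR-143 cells. In miR143_IgG, CLK1 (0.260 FPKM) and SRPK2 (0.899 FPKM) were under 1 FPKM, and both were compared only through miR143_AGO. Of 14 decay factors, 10 were compared in each population, and 4 were at least 2-fold lower in each, against 2 higher in control cells and 1 higher with miR-143. Their lower share of 40.0% in each was near the 36.2% and 33.5% of all rows. Their higher shares of 20% and 10% were under those of all rows. MAGOH was the lowest in both, with 6.31 FPKM with IgG and a listing at 0 with AGO2 in control cells and with 71.7 and 3.21 FPKM in miR-143 cells. Against these lists, the members had the lowest median log2 ratio in each population, as a description with no test. In miR-143 cells, however, the other splicing regulators (−1.29) lay as low as the SR and Tra2 members (−1.23). In control cells the hnRNP and PTB members (−0.87) lay near the decay factors (−0.73) and the core spliceosome proteins (−0.69). The low ratio was thus not particular to the members.

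**Figure D4:**
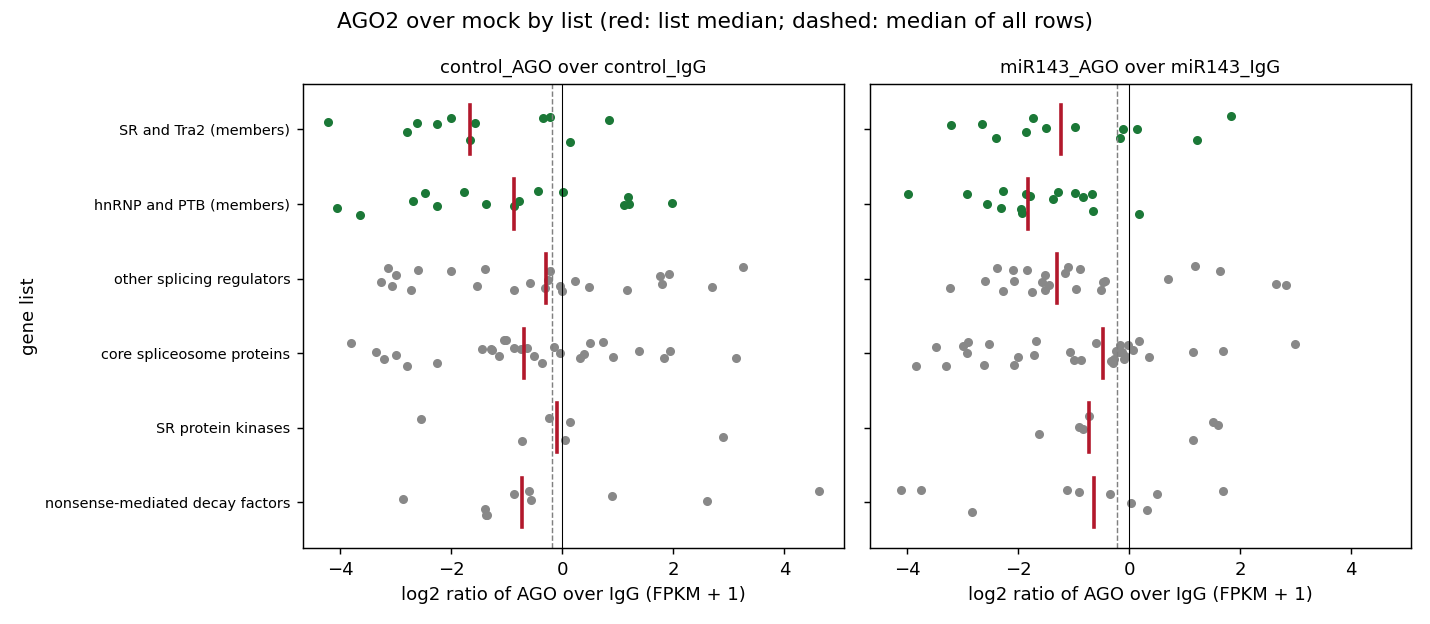
Log2 ratio of AGO over IgG of each compared gene (points) in control cells (left) and miR-143 cells (right), by list, with the members in green, list medians as red bars and the median of all rows dashed. The medians of the SR and Tra2 members are −1.66 and −1.23, and those of the hnRNP and PTB members −0.87 and −1.82, and each lies below that of all rows.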

How the data were processed

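RNA from AGO2 and mock precipitates of K562 cells was sequenced. The authors deposited 4 tables, 1 per group of 3 samples, with the group's average FPKM per row. Per the labels, ribosomal RNA was removed, reads were processed with TopHat and Cufflinks, and the build was hg38. Versions and annotation are not given in the sources used here. Cufflinks joins overlapping genes in 1 row, and FPKM divides by all mapped fragments of a library, so that abundant non-coding RNA lowers all other values.

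Ratios were computed as log2((FPKM + 1)/(FPKM + 1)) with pandas 2.3.3 over rows of 1 FPKM or more in at least 1 of both groups, and checked on data with known folds. A difference of 2-fold counted as called. A row under 1 FPKM in 1 group was compared only where the other group was higher, and a row listed at 0 then counts as called by construction. The design's form without replicates was used. The low edge of a group is the 10th lowest product above 0 of FPKM and length over genes with 1 transcript. Gene features and sites came from GENCODE 29, matched by symbol. All 34 members are named, and of other lists the extremes. Members and lists were chosen with earlier results of these data known. Alternatives were pseudocounts of 0.1 and 0.01, other filters, scalings and thresholds, joined rows and summed names.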

Additional observations from a re-analysis of the deposited data

How the results depend on the processing

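No paired analysis was possible because the tables hold 1 average per group and no replicate numbers, and for the same reason no replicate could be left out. The medians of the members kept their sign in all 4 comparisons under every pseudocount, filter and scaling and with joined or summed rows, and stayed within the 95% binomial interval of the median over members, which is a yardstick over genes and no replicate error. That interval spans 0 in the AGO pair (−0.31 to 0.67) and in the IgG pair (−0.68 to 0.71), so that a kept sign says little there. The AGO pair fell to 0.0014 at the same median, and the IgG pair to 0.011 with joined rows. In control cells the median ratio of AGO over IgG ranged from −2.26 (mean of at least 5 FPKM) to −0.78 (joined rows), and in miR-143 cells from −1.86 to −1.15. Scaling to the same median, upper quartile or coding sum moved the median of all rows by 0.68, 0.48 and 0.55 where AGO was set over IgG in control cells, by 0.16, 0.40 and 0.49 in those with miR-143, by −0.19, 0.11 and 0.03 in the AGO pair and by 0.26, 0.16 and 0.02 in the IgG pair. The members moved with the rows, and at the same median they were at −0.93 against 0.50 in control and at −1.46 against −0.06 in miR-143 cells.

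Counts of members moved by over 1.5 times in a few settings. With a mean of at least 5 FPKM, which leaves fewer members, 1 was 2-fold higher for AGO over IgG in control (24.1% of rows) and in miR-143 cells (21.5%). In the AGO pair 1 of 10 was then higher (11.3% of rows) and 3 were lower (14.2%), so that the balance of 6 higher and 4 lower turned, and 2 of 20 were lower in the IgG pair (28.6%). Scaling to the same median left 3 of 28 lower (22.6% of rows) and 8 higher (39.5%) in the IgG pair. In the AGO pair it left 5 of 27 higher (15.1% of rows) and 5 lower (17.6%). At 10-fold, with 1 FPKM added, AGO over IgG had 0 higher (4.38% of rows) and 3 lower (4.98%) in control cells. With miR-143 it had 0 higher (1.60%) and 1 lower (3.67%). The AGO pair had 0 higher (0.286%) and 0 lower (0.745%), and the IgG pair 3 higher (5.71%) and 0 lower (3.16%). At 1.5-fold, 9 of 28 were lower in the IgG pair (32.1%), near the 34.5% of rows.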
